A study of Mus musculus with 10 samples.

Results

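The CXC and CX3C chemokine genes of the hippocampus were sorted into 3 classes by their estimated change after pilocarpine (PILO)-induced status epilepticus (SE). These were early (*Cxcl1* and *Cxcl2*), late (*Cxcl10*, *Cxcl11*, *Cxcl13* and *Cxcl16*) and constitutive (*Cxcl12*, *Cxcl14* and *Cx3cl1*). The classes rest on estimates and not on tests. *Cxcl1* did not differ detectably between 6 h and 2 days, and the rise of *Cxcl11* at 2 days did not pass the test. The members were chosen by gene symbol, and these 9 were taken from 15900 genes with a value. Expression was measured by cap analysis of gene expression (CAGE), which counts the capped 5′ ends of transcripts, and is given as CPM, the number of tags of a gene scaled to a fixed library total (counts per 1e+06 tags). Since each transcript gives a tag at its 5′ end only, CPM values of different genes need no correction for transcript length.

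Whole hippocampi of 10 male ICR (CD-1) mice were used, 2 mice in each of 5 groups, and every value below belongs to 1 mouse unless a mean is named. The pre-SE mice carry the label untreated, and for controls the methods of the study describe a saline injection where the other mice received PILO. The SE 6 h and SE 2 days mice, 9 to 10 weeks old at induction, received methyl scopolamine, PILO at 290 mg/kg and, after 5 generalized convulsive seizures, diazepam, and their hippocampi were taken at 6 h or at 2 days. The SE + LEV 6 h and SE + LEV 2 days mice received the same and, by mouth, the antiseizure drug levetiracetam (LEV) at 360 mg/kg, given 1 time before the 6 h sampling and 5 times before the 2 days sampling. Seizures and PILO separate every SE group from pre-SE together, so their parts cannot be told apart. Whether the pre-SE mice received methyl scopolamine or diazepam is not clear from the sources. If they did not, these drugs separate the groups too. In whole tissue, fewer cells of a type and less RNA per cell also cannot be told apart.

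The libraries held 10540698 to 51710968 tags, and 3 tags, taken here as the lowest level that could be told from 0, corresponded to 0.058 to 0.285 CPM. Neuronal, astrocytic, microglial and oligodendrocyte markers were all listed, as the tissue label requires. The summed level of 4 choroid plexus markers ranged from 8.66 to 4005 CPM and differed widely within 4 of the 5 groups. Their part in the results below was not tested. Calls were made with limma on log2(CPM + 0.1), where logFC is the difference of 2 group means on that scale and a gene was called at a Benjamini-Hochberg adjusted p of 0.05 or less over 15851 genes. This scale understates the change of genes near 0. All 9 members passed the filter of 0.1 CPM in 2 libraries, but *Cxcl2*, *Cxcl11* and *Cxcl13* passed only through mice sampled after SE. *Cxcl1* reached 0.1 CPM in only 1 pre-SE mouse, so it too needed mice sampled after SE to pass.

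Chemokines are small secreted or membrane-bound proteins that direct the movement of cells through G protein-coupled receptors, and the family names describe the spacing of the first cysteines. In the brain some of them are made continuously by neurons and vessels and act in signalling between neurons and glia, while others are nearly silent until injury or infection. *Cxcl1* and *Cxcl2* encode ligands of Cxcr2 that attract neutrophils and are classical targets of NF-κB, whereas *Cxcl10* and *Cxcl11* encode ligands of Cxcr3 that are induced by interferons.

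Promoter sequences are shown for both early ligands, for *Cxcl10* and *Cxcl13* of the late ligands and for *Cxcl14* of the constitutive ligands, so that the 3 classes can be compared in the letters searched. They are the 250 bases before the RefSeq gene start on GRCm38.p6, written 5′ to 3′ in the direction of the gene, with matches in capitals. RefSeq promoters were matched for 7 of the 9 members, and *Cxcl11* and *Cxcl16* had no entry.
*Cxcl1* (chr5:90890995-90891244, forward strand): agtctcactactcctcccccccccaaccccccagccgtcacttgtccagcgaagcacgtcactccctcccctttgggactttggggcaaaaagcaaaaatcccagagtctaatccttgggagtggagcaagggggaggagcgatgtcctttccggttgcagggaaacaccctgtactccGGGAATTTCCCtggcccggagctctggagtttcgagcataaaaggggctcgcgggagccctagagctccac
*Cxcl2* (chr5:90903649-90903898, forward strand): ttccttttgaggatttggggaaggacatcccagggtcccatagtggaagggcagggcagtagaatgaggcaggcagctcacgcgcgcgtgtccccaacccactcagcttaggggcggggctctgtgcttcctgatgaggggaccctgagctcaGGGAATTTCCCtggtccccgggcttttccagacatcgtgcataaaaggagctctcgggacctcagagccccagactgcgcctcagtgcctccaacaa
*Cxcl10* (chr5:92348890-92349139, reverse strand): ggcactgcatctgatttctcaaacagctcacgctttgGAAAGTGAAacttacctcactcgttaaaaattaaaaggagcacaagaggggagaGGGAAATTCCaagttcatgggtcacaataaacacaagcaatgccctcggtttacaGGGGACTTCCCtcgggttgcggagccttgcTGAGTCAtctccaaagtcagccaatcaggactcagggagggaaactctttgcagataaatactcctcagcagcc
*Cxcl13* (chr5:95956689-95956938, forward strand): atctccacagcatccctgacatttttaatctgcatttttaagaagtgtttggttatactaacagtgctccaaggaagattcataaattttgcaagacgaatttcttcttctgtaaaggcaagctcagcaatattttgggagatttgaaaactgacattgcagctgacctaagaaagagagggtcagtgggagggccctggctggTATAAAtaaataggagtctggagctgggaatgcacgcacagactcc
*Cxcl14* (chr13:56296552-56296801, reverse strand): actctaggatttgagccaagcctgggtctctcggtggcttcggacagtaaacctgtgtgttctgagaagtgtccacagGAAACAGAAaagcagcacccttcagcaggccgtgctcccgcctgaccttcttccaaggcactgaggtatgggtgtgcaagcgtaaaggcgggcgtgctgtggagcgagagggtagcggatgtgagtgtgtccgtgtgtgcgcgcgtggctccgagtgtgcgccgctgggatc
Matches were searched on both strands in windows of 300 bases (250 before and 50 from the start), and positions are counted from the gene start. The early pair *Cxcl1* and *Cxcl2* both held GGGAATTTCCC, which matches the NF-κB site on both strands, at −71 to −61 and at −97 to −87. It was part of a run of 14 bases shared by both windows, GGGAATTTCCCTGG. *Cxcl10* held matches to the NF-κB site in 2 places (GGGAAATTCC at −159 to −150 and GGGGACTTCCC at −104 to −94), the ISRE core GAAANNGAA as GAAAGTGAA at −213 to −205, and the AP-1 site TGANTCA as TGAGTCA at −74 to −68. *Cxcl13* held only the TATA box TATAAA, at −46 to −41, and *Cxcl14* only the ISRE core, as GAAACAGAA at −172 to −164. Of all 32851 promoters, 8.46% held the NF-κB site, 8.56% the ISRE core, 7.81% the AP-1 site and 13.6% the TATA box, so single matches of this kind were common. The windows of the constitutive ligands held 19 to 22 CpG dinucleotides and those of the early and late ligands 3 to 11, where the median of all promoters was 7. A match describes letters and is no evidence of binding.

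**Figure D1:**
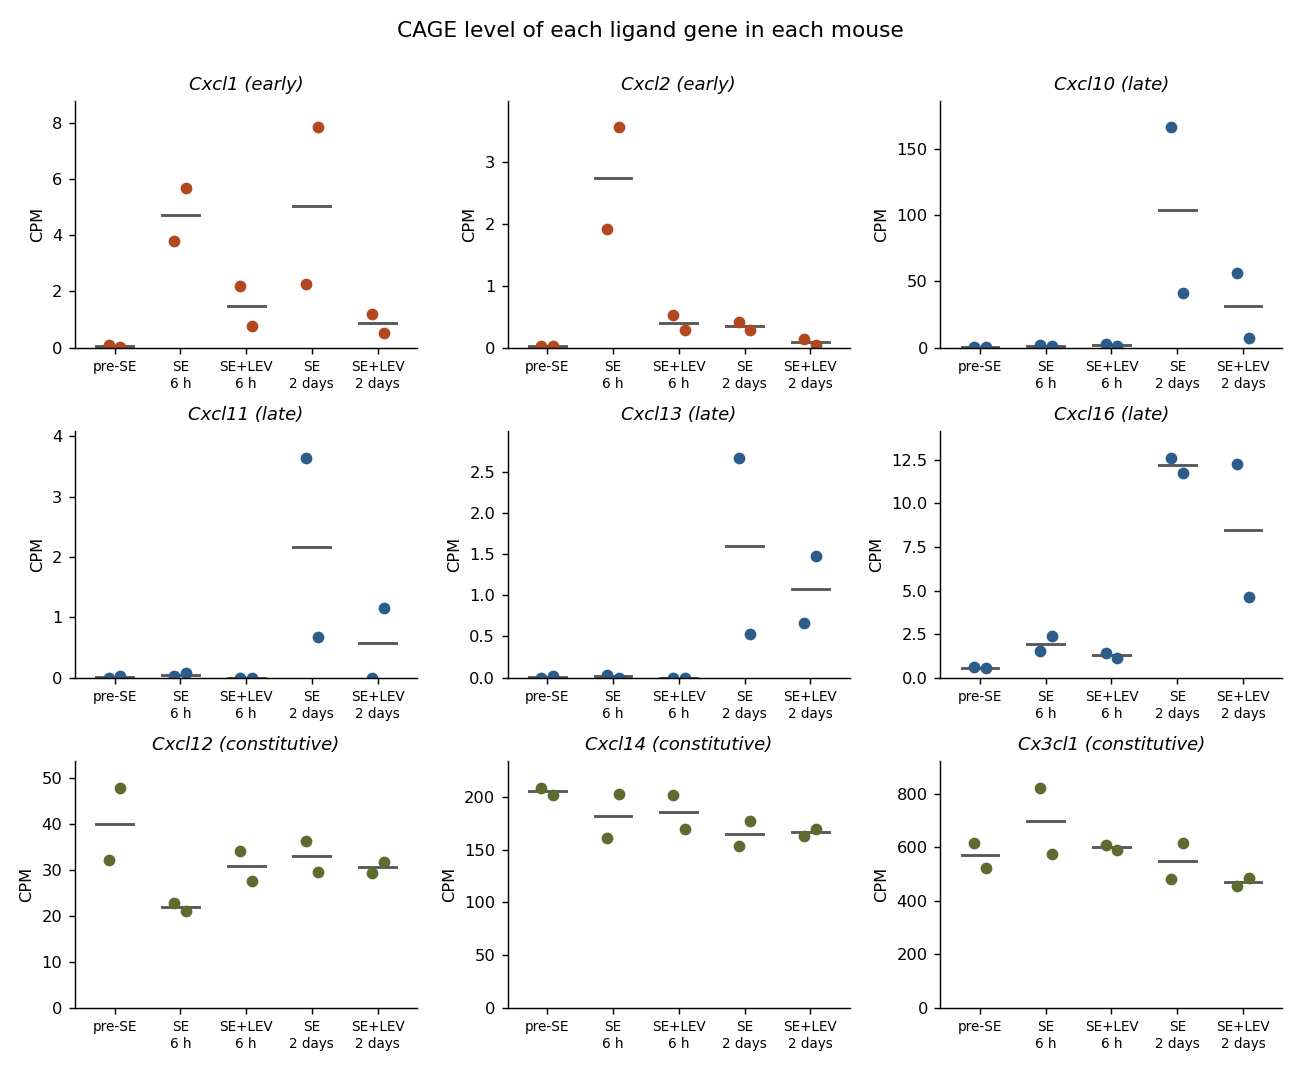
CAGE level in CPM (vertical axis, from 0, different in each panel) of the 9 ligand genes by group (horizontal axis). Points are single mice and lines are means of 2 mice. *Cxcl2* peaked at 6 h, at 1.92 and 3.56 CPM, the late ligands were highest in the mice sampled at 2 days, and *Cxcl12*, *Cxcl14* and *Cx3cl1* were well above 0 in every mouse.

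*Cxcl1* (ENSMUSG00000029380, chromosome 5, 91320267 to 91322141 of mm9, forward strand) encodes a neutrophil attractant. Before SE its level was 0.10 and 0.02 CPM. At 6 h it was 3.78 and 5.69 CPM without LEV and 2.19 and 0.76 CPM with LEV, and at 2 days 2.25 and 7.83 CPM without LEV and 1.19 and 0.53 CPM with LEV. Every SE mouse was thus above both pre-SE mice, and both LEV groups lay between pre-SE and the SE group of the same time. At 6 h *Cxcl1* rose (logFC 4.94, standard error 0.68, limma adjusted p = 0.0053), and the pooled CPM was 88.6 times that of pre-SE, with 4 tags in both pre-SE mice together, where the exact 95% counting interval was 34.1 to 328. These intervals cover counting error only. At 2 days *Cxcl1* was still higher than before SE (logFC 4.80, limma adjusted p = 0.0034, 98.3 times the pooled CPM, 95% counting interval 37.9 to 364), and its level did not differ detectably from that at 6 h (logFC −0.13, 95% interval −1.66 to 1.39). The call at 6 h was lost without SE 6 h replicate 2 (limma adjusted p = 0.0566). Its place among the early ligands rested on the log scale, since its mean CPM was 5.04 at 2 days and 4.74 at 6 h, and on single mice, since on the log scale too the level at 2 days was above that at 6 h without SE 6 h replicate 2 (logFC 0.15) or without SE 2 days replicate 1 (logFC 0.74).

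*Cxcl2* (ENSMUSG00000058427, chromosome 5, 91332897 to 91334935, forward strand), the neighbour of *Cxcl1* and also a neutrophil attractant, was at 0.03 and 0.02 CPM in pre-SE mice, which is 1 tag in each. The 6 h values were 1.92 and 3.56 CPM without LEV and 0.53 and 0.28 CPM with LEV, and at 2 days 0.42 and 0.29 CPM without LEV and 0.14 and 0.04 CPM with LEV. The SE 6 h mice stood above all the others, and the SE + LEV 6 h and SE 2 days mice overlapped. *Cxcl2* rose at 6 h (logFC 4.44, standard error 0.51, limma adjusted p = 0.0023), with 98.7 times the pooled CPM of pre-SE (95% counting interval 26.7 to 825). It was lower at 2 days than at 6 h (logFC −2.59, standard error 0.51, limma adjusted p = 0.0202). Against pre-SE its logFC at 2 days was 1.85 (limma adjusted p = 0.0619), and this passed the threshold with a pseudocount of 0.01 or without a mean-variance trend (limma adjusted p = 0.0372 and 0.0346).

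Markers of neutrophils, the cells that these ligands attract, were measured for 3 of 7 genes (*S100a8*, *S100a9* and *Mpo*), and the other 4, among them *Ly6g*, were not analysed here. Their summed level was 0.59 to 1.62 CPM before SE. At 6 h it was 6.23 to 6.70 CPM without LEV and 5.02 to 5.98 CPM with LEV, and at 2 days 1.18 to 4.87 CPM without LEV and 1.76 to 2.88 CPM with LEV. Only *Mpo* was called at 6 h, at 3.40 and 1.16 CPM against 0 and 0.02, and all 3 were higher at an unadjusted p under 0.05. With LEV at 6 h *Mpo* was at 0.07 and 0.28 CPM. By contrast *S100a8* was at 2.29 and 2.85 CPM with LEV against 1.44 and 2.40 without, and *S100a9* at 2.66 and 2.85 against 1.86 and 2.67. The part of neutrophil RNA in the levels of *Cxcl1* and *Cxcl2* was not tested.

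*Cxcl10* (ENSMUSG00000034855, chromosome 5, 92775664 to 92777915, reverse strand) encodes an interferon-induced attractant of T cells. Before SE its level was 0.66 and 0.83 CPM. The 6 h values were 2.02 and 1.03 CPM without LEV and 3.02 and 1.33 CPM with LEV, and at 2 days 165.99 and 41.17 CPM without LEV and 56.01 and 7.52 CPM with LEV. All 4 mice sampled at 2 days were thus above all mice sampled earlier, and the SE 2 days mice differed 4.03-fold from each other. Against SE 6 h, the SE 2 days mean was 67.9-fold higher (logFC 5.74, standard error 0.89, limma adjusted p = 0.0077), and against pre-SE it was 139-fold higher (logFC 6.62). At 6 h the logFC was 0.88 (95% interval −1.11 to 2.87, limma adjusted p = 0.645). *Cxcl10* lies inside *Art3*, which is on the opposite strand and was at 0.06 to 0.58 CPM, and whether the counting used strand is not given in the sources used here.

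*Cxcl11* (ENSMUSG00000060183, chromosome 5, 92788570 to 92794511, reverse strand), which encodes another ligand of Cxcr3, is annotated as a processed transcript and also lies within *Art3*. It had at most 1 tag in any pre-SE, SE 6 h or SE + LEV 6 h mouse. At 2 days it was 3.65 and 0.67 CPM without LEV and 0 and 1.15 CPM with LEV, where 0 allows up to 0.0686 CPM (3 tags in that library). Both SE 2 days mice were above all mice sampled earlier, but the logFC against pre-SE (3.96, standard error 1.04) did not pass the test (limma adjusted p = 0.0563). It passed when only these groups were fitted (0.029) or when either SE + LEV 2 days mouse was left out (limma adjusted p = 0.00667 and 0.00698).

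*Cxcl13* (ENSMUSG00000023078, chromosome 5, 96385945 to 96390086, forward strand), whose product attracts B cells through Cxcr5, was likewise at 1 tag or fewer in every mouse sampled up to 6 h. At 2 days it was 2.67 and 0.53 CPM without LEV and 0.66 and 1.48 CPM with LEV, and these groups overlapped. *Cxcl13* rose at 2 days against pre-SE (logFC 3.59, standard error 0.67, limma adjusted p = 0.0124), with 74 tags against 1. The call was lost without pre-SE replicate 1, pre-SE replicate 2 or SE 2 days replicate 1 (limma adjusted p = 0.0897, 0.0582 and 0.0576) and with a pseudocount of 1 (0.0746).

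*Cxcl16* (ENSMUSG00000018920, chromosome 11, 70267485 to 70273486, reverse strand) encodes a membrane-bound ligand of Cxcr6 that also takes up oxidized lipoproteins. Before SE its level was 0.59 and 0.56 CPM. At 6 h it was 1.51 and 2.40 CPM without LEV and 1.43 and 1.14 CPM with LEV, and at 2 days 12.63 and 11.75 CPM without LEV and 12.28 and 4.64 CPM with LEV. Its SE 2 days mice differed by only 1.07-fold, the least of the 6 early and late ligands, and no neighbours in the order of groups overlapped except the 2 groups sampled at 2 days. *Cxcl16* rose 21.2-fold at 2 days (logFC 4.19, standard error 0.47, limma adjusted p = 0.00134), and was 6.24-fold higher than at 6 h (logFC 2.61, limma adjusted p = 0.0143). At 6 h both SE mice were already above both pre-SE mice, with a logFC of 1.57 that did not pass the test (limma adjusted p = 0.121). *Cxcl16* overlaps *Zmynd15* on the opposite strand, and *Zmynd15* was not analysed here.

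The summed level of 5 microglial markers was 141.5 to 143.2 CPM before SE and, at 6 h, 70.4 to 72.7 CPM without LEV and 89.3 to 116.4 CPM with LEV. At 2 days it was 245 to 265.5 CPM without LEV and 316 to 328.2 CPM with LEV. Of these, *Aif1* rose at 2 days, and *P2ry12* and *Tmem119*, markers of resting microglia, fell at 6 h. At 2 days without LEV the latter 2 went opposite ways. *Tmem119* was at 36.38 and 30.76 CPM against 14.07 and 15.47 before SE, and *P2ry12* at 18.06 and 16.91 CPM against 41.45 and 26.88. Of the 5 markers, 3 were higher and 0 lower at that time at an unadjusted p under 0.05. Among monocyte and macrophage markers, 4 of 6 were measured and *Plac8* alone rose at 2 days, and among 6 astrocyte markers *Gfap* and *Aqp4* rose. Another 3 astrocyte markers were lower at 2 days at an unadjusted p under 0.05, for example *Slc1a2* at 786 and 809 CPM against 1547 and 1484. The summed level of 5 oligodendrocyte markers was 4466 to 5029 CPM before SE and 1639 to 2456 CPM at 2 days without LEV, with 0 called and 4 of 5 lower at an unadjusted p under 0.05. The red cell genes *Hbb-b1* and *Hbb-b2* fell at 2 days. The summed level of 5 endothelial markers was 55.4 to 61.3 CPM before SE and 108.4 to 170.1 CPM at 6 h without LEV, where *Cdh5* rose. The 7 markers of T and B cells, the cells that *Cxcl10*, *Cxcl11* and *Cxcl13* products attract, were not analysed here. The summed level of 6 neuronal markers was 4792 to 6327 CPM before SE and 4004 to 5832 CPM at 6 h without LEV. At 2 days it was 3463 to 3790 CPM without LEV and 3108 to 3831 CPM with LEV. At 2 days without LEV 0 of these markers were called, and 1 was lower at an unadjusted p under 0.05. The part of changed cell numbers in the levels of the ligands was not tested.

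None of the constitutive ligands was called against pre-SE or between the times. *Cx3cl1* (ENSMUSG00000031778, chromosome 8, 97295909 to 97306323, forward strand) encodes fractalkine, which neurons make and microglia sense through Cx3cr1, and it had the highest level of the 9 genes in every mouse. Before SE its level was 617 and 525 CPM. The 6 h values were 824 and 577 CPM without LEV and 609 and 591 CPM with LEV, and at 2 days 483 and 616 CPM without LEV and 455 and 484 CPM with LEV. No neighbouring groups in this order were separated. The logFC was 0.28 at 6 h (95% interval −0.28 to 0.84) and −0.06 at 2 days (95% interval −0.62 to 0.50).

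*Cxcl14* (ENSMUSG00000021508, chromosome 13, 56390008 to 56397912, reverse strand) encodes a chemokine found in some hippocampal interneurons. Before SE its level was 209 and 202 CPM. At 6 h it was 161 and 203 CPM without LEV and 202 and 170 CPM with LEV, and at 2 days 153 and 177 CPM without LEV and 163 and 170 CPM with LEV. Both SE 2 days mice were below both pre-SE mice, by a logFC of −0.32 (95% interval −0.79 to 0.15, limma adjusted p = 0.463), and at 6 h the logFC was −0.19 (95% interval −0.66 to 0.28).

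*Cxcl12* (ENSMUSG00000061353, chromosome 6, 117118553 to 117131385, forward strand) encodes a ligand of Cxcr4 and Cxcr7 that guides neuronal progenitors in the dentate gyrus. Before SE its level was 32.1 and 47.9 CPM. The 6 h values were 22.8 and 21.0 CPM without LEV and 34.1 and 27.6 CPM with LEV, and at 2 days 36.3 and 29.5 CPM without LEV and 29.3 and 31.6 CPM with LEV. The SE 6 h mice were the lowest and did not overlap with any other group. Against pre-SE the logFC at 6 h was −0.84 (95% interval −1.42 to −0.25), which did not pass after adjustment (limma adjusted p = 0.139), and it was −0.26 at 2 days (95% interval −0.84 to 0.32).

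Counted over all 9 members, 2 were called higher at 6 h (*Cxcl1* and *Cxcl2*), where 2.76% of all genes were, and none was called lower (0.202% of all genes), with 1 lower at an unadjusted p under 0.05 (*Cxcl12*). At 2 days 4 were called higher (*Cxcl1*, *Cxcl10*, *Cxcl13* and *Cxcl16*; 5.07% of all genes) and none lower (0.593%), also with 0 lower at an unadjusted p under 0.05. *Cxcl1*, *Cxcl2* and *Cxcl13* needed mice sampled after SE to pass the filter, and their pre-SE levels left little room for a fall. The shares of all genes are thus a description and no test of the members. The median logFC of the members was 0.44 at 6 h and 3.59 at 2 days, beside −0.13 and −0.03 over all genes. The 6 h median was the value of *Cxcl11*, with 2 tags against 1, and the 2 days median that of *Cxcl13*. Both passed the filter only through mice sampled after SE, so the medians are no test against all genes. The shift of −0.13 over all genes at 6 h came to −0.0045 after median-of-ratios rescaling. That rescaling brings the median near 0 by construction, so the value says nothing about the source of the shift. Both mice lay above both pre-SE mice for 5 members at 6 h (18.6% of all genes) and 6 members at 2 days (26.3%). Among the 5 was *Cxcl11*, with 1 tag in each SE 6 h mouse against 0 and 1 tag before SE. These values are under the limit of 3 tags, so they show no separation. Both mice lay below both pre-SE mice for *Cxcl12* at 6 h (31.3%) and *Cxcl14* at 2 days (25.6%). This is 1 of 9 members each and below the share of all genes. From 6 h to 2 days, 3 members were called higher (*Cxcl10*, *Cxcl13* and *Cxcl16*; 3.14% of all genes) and *Cxcl2* lower (1.11%). These 4 calls were lost without single mice or under another setting. *Cxcl16* and *Cxcl2* lost theirs when any 1 of the 4 mice compared was left out (limma adjusted p = 0.0532 to 0.105 and 0.0544 to 0.141), *Cxcl10* without SE 6 h replicate 2 (0.0658) or SE 2 days replicate 1 (0.0729), and *Cxcl13* when any 1 of these but SE 2 days replicate 2 was left out (0.0844 to 0.121) or with a pseudocount of 1 (0.0837). *Cxcl2* also lost its call with a pseudocount of 0.01 (limma adjusted p = 0.0808).

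**Figure D2:**
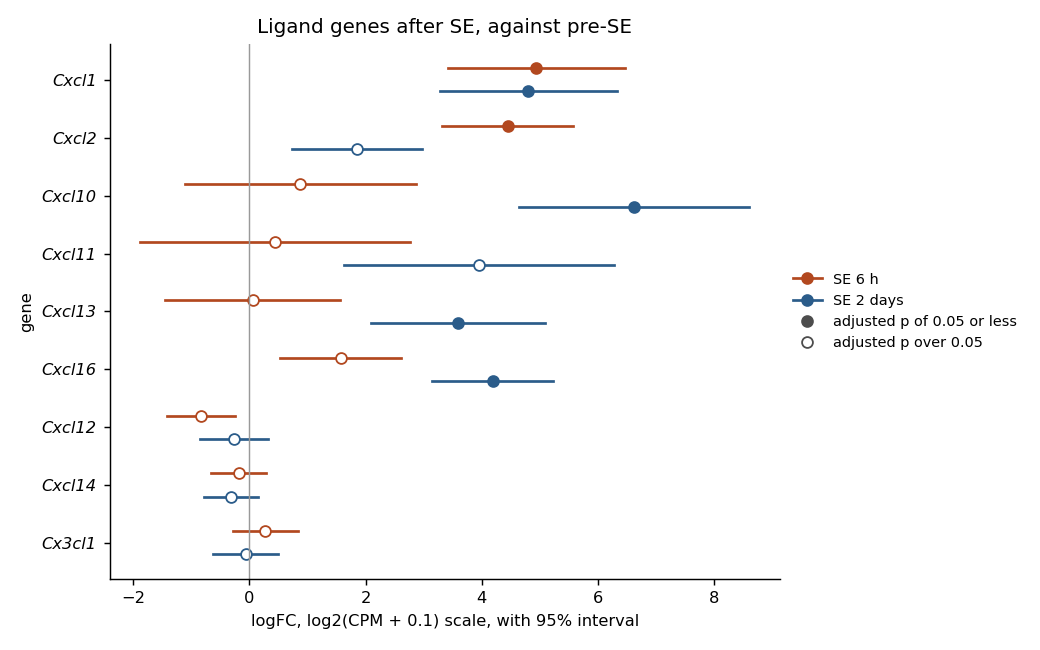
Difference from pre-SE (horizontal axis, logFC on the log2(CPM + 0.1) scale) of each ligand gene (vertical axis) in SE 6 h and SE 2 days mice, 2 mice per group, with limma 95% intervals as lines. Filled points passed an adjusted p of 0.05. The 6 h and 2 days points lie together for *Cxcl1* (4.94 and 4.80) and apart for *Cxcl10* (0.88 and 6.62).

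The mice of a group ranked alike across the late ligands in SE 2 days and not in SE + LEV 2 days. SE 2 days replicate 1 was the higher mouse for *Cxcl10*, *Cxcl11*, *Cxcl13* and, by little, *Cxcl16* (12.63 against 11.75 CPM). Of the early ligands, replicate 1 was also the higher mouse for *Cxcl2* (0.42 against 0.29 CPM), and replicate 2 for *Cxcl1*. In SE + LEV 2 days, replicate 1 was the higher mouse for *Cxcl10*, *Cxcl16*, *Cxcl1* and *Cxcl2*, and replicate 2 for *Cxcl11* and *Cxcl13*. Across the 10 libraries on the log2(CPM + 0.1) scale, Pearson's r between members was 0.94 for *Cxcl10* and *Cxcl16*, 0.88 for *Cxcl10* and *Cxcl13*, 0.86 for *Cxcl11* and *Cxcl13*, and 0.78 for *Cxcl1* and *Cxcl2*. It was −0.08 for *Cxcl2* and *Cxcl10*. These 10 points share groups and differ in depth, so r is given as a description.

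LEV was compared with SE alone at the same time to ask whether it changed the ligands. At 6 h none of the 9 members was called lower (0.0126% of all genes, or 2 genes) or higher (0%), and 2 were lower at an unadjusted p under 0.05. These were *Cxcl2*, at 0.53 and 0.28 CPM against 1.92 and 3.56 (3 tags in the second of these mice, mean 6.77-fold lower, logFC −2.47, 95% interval −3.60 to −1.35, limma adjusted p = 0.22), and *Cxcl1*, at 2.19 and 0.76 CPM against 3.78 and 5.69 (mean 3.21-fold lower, logFC −1.76, limma adjusted p = 0.995). Of all genes, 184 upward and 542 downward reached an unadjusted p under 0.05. Both SE + LEV 6 h mice were below both SE 6 h mice for *Cxcl1*, *Cxcl2*, *Cxcl16* and *Cxcl11* (13.4% of all genes), the last with 2 tags against 0. They were above for *Cxcl12* alone (16.1%), where the logFC was 0.48 (95% interval −0.10 to 1.07), while that of *Cxcl10* was 0.45 (95% interval −1.54 to 2.43) and that of *Cxcl16* was −0.54 (95% interval −1.59 to 0.50).

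At 2 days no member was called lower or higher with LEV (0% of all genes in each direction), and 3 were lower at an unadjusted p under 0.05. They were *Cxcl1* (mean 5.86-fold lower, logFC −2.26, 95% interval −3.78 to −0.74), *Cxcl2* (6 and 1 tags with LEV, mean 3.94-fold lower, logFC −1.30, 95% interval −2.42 to −0.17) and *Cxcl10* (mean 3.26-fold lower, 95% interval of logFC −3.99 to −0.02), each with a limma adjusted p = 1. Of all genes, 208 upward and 220 downward reached an unadjusted p under 0.05. Both SE + LEV 2 days mice were below both SE 2 days mice for *Cxcl1* and *Cxcl2* (12.2% of all genes), and no member was above (15.2%). For *Cxcl10* the mice overlapped, since 56.01 CPM with LEV exceeded 41.17 CPM without. The other late ligands also overlapped, with a logFC of −0.68 for *Cxcl16* (95% interval −1.73 to 0.36), −0.27 for *Cxcl13* (95% interval −1.77 to 1.23) and −2.27 for *Cxcl11* (95% interval −4.59 to 0.06). The intervals leave room for several-fold differences either way in *Cxcl13*, so the lack of a call does not show equal levels. None of the cell type markers was called with LEV, where 2 of all genes were at 6 h and 0 at 2 days. At an unadjusted p under 0.05, 2 microglial markers and 1 mural cell or fibroblast marker were higher at 6 h. Lower were 1 each of the endothelial, neutrophil and red cell markers. At 2 days 2 oligodendrocyte markers and 1 astrocyte marker were higher, and 1 mural cell or fibroblast marker was lower. The summed oligodendrocyte level at 2 days was 2937 to 4343 CPM with LEV and 1639 to 2456 CPM without.

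**Figure D3:**
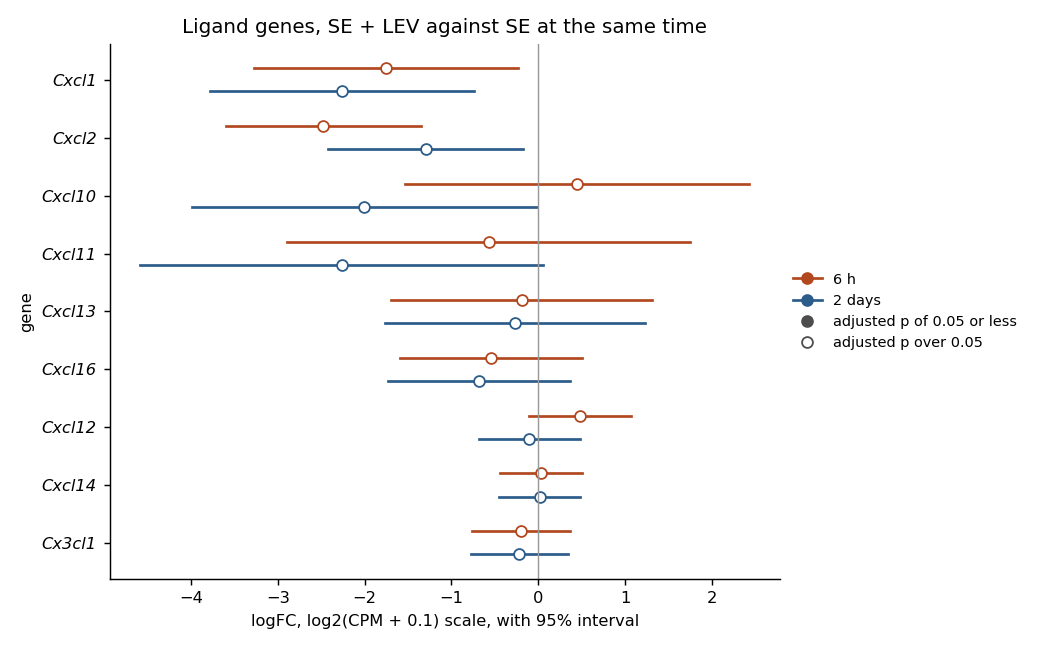
Difference between SE + LEV and SE mice of the same time (horizontal axis, logFC on the log2(CPM + 0.1) scale) for each ligand gene (vertical axis), 2 mice per group, with limma 95% intervals as lines. No point is filled, since none passed an adjusted p of 0.05, and the intervals of *Cxcl2* (−2.47 and −1.30) and *Cxcl1* (−1.76 and −2.26) end below 0 at both times.

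Set against pre-SE, which SE and SE + LEV share as their control, fewer members were called in the LEV groups, a difference in counts that was not itself tested. At 6 h no member was called (0.315% of all genes were called higher), with *Cxcl1* (logFC 3.18, limma adjusted p = 0.109) and *Cxcl2* (logFC 1.97, limma adjusted p = 0.188) higher at an unadjusted p under 0.05. At 2 days 3 members were called higher, where 2.83% of all genes were: *Cxcl16* (logFC 3.50, limma adjusted p = 0.00448), *Cxcl10* (logFC 4.62, limma adjusted p = 0.0216) and *Cxcl13* (logFC 3.32, limma adjusted p = 0.0273). Without pre-SE replicate 1, pre-SE replicate 2 or SE + LEV 2 days replicate 1, only *Cxcl16* of these was called, and without SE + LEV 2 days replicate 2 *Cxcl13* was not (limma adjusted p = 0.109). Both LEV mice were above both pre-SE mice for 5 members at 2 days (22.6% of all genes). Among these *Cxcl2* had 6 and 1 tags against 1 tag in each pre-SE mouse, so its separation was not clear. Both LEV mice were below both pre-SE mice for the 3 constitutive ligands *Cxcl12*, *Cxcl14* and *Cx3cl1* (17.5% of all genes), and none of these was called. Whether the LEV difference changed from 6 h to 2 days was tested as an interaction, in which no member passed in either direction (0% of all genes in each), also at an unadjusted p under 0.05. Of all genes, 251 upward and 126 downward reached that p. The interaction was −2.45 for *Cxcl10* (95% interval −5.26 to 0.36) and 1.18 for *Cxcl2* (95% interval −0.41 to 2.77).

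Among other genes of the pathway, receptors were measured for 5 of 11 genes, and 6 were not analysed here, among them *Cxcr2* and *Cxcr3*. None of the 5 was called at 6 h or at 2 days against pre-SE, with *Cx3cr1* lower at 6 h and *Cxcr4* and *Cx3cr1* higher at 2 days at an unadjusted p under 0.05. Over the 5 receptors the median logFC was −0.37 at 6 h and 0.83 at 2 days, beside −0.13 and −0.03 over all genes. *Cx3cr1*, the microglial receptor of fractalkine, was at 22.18 and 14.83 CPM before SE, at 13.37 and 6.51 CPM at 6 h and at 32.14 and 31.95 CPM at 2 days, all without LEV. It rose from 6 h to 2 days (logFC 1.77, standard error 0.35, limma adjusted p = 0.0213). The call was lost without SE 6 h replicate 2 or either SE 2 days mouse (limma adjusted p = 0.116 to 0.124). *Cxcr4*, a receptor of the *Cxcl12* product, was at 0.76 and 0.68 CPM before SE and at 2.76 and 3.10 CPM at 2 days (limma adjusted p = 0.096). Of the other CXC ligands, 1 of 8 was measured, namely *Pf4*, which was not called.

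Of the proteases that cut or shed these ligands, 4 of 6 were measured. *Mmp12*, the macrophage metalloelastase, alone was called, at 0.24 and 0 CPM before SE and 23.45 and 3.87 CPM at 2 days (logFC 5.71, standard error 0.89, limma adjusted p = 0.00501). *Adam10*, a sheddase of *Cx3cl1* and *Cxcl16* products, was at 101 to 180 CPM in every mouse. *Adam17*, the other sheddase, was at 11.8 to 24.6 CPM.

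NF-κB and interferon regulators were examined because their sites were searched in the promoters. Of 6 NF-κB genes, *Nfkb2* rose at 6 h, from 0.31 and 0.33 CPM to 3.69 and 3.49 (logFC 3.14, standard error 0.47, limma adjusted p = 0.00754), where 2.76% of all genes were called higher. At an unadjusted p under 0.05, 4 of the 6 were higher, beside 1460 of all 15851 genes. At 2 days *Nfkb2* (logFC 3.50, limma adjusted p = 0.00269) and *Nfkbiz* (logFC 1.86, limma adjusted p = 0.0217) were called higher. The *Nfkb2* call at 6 h was lost without pre-SE replicate 1 or either SE 6 h mouse (limma adjusted p = 0.0513 to 0.0592), and that of *Nfkbiz* without either pre-SE mouse or without SE 2 days replicate 2 (0.0582 to 0.208). Of the 4 interferon-pathway genes reported here, none was called at 6 h (1 was higher at an unadjusted p under 0.05), and 4 rose at 2 days, where 5.07% of all genes were called higher. *Irf7*, the master regulator of type I interferon genes, was at 0.93 and 0.93 CPM before SE, 1.96 and 2.06 CPM at 6 h and 83.31 and 38.69 CPM at 2 days (logFC 5.79, standard error 0.41, limma adjusted p = 0.000433). *Irf9*, *Irf1* and *Stat2* also rose at 2 days (logFC 3.76, 2.07 and 1.58). The *Irf1* call was lost when any 1 of the 4 mice compared was left out (limma adjusted p = 0.0594 to 0.16), and that of *Stat2* without either pre-SE mouse, either SE 6 h mouse or SE 2 days replicate 1 (0.0526 to 0.185) and with only the compared groups fitted (0.0508). As for *Cxcl10*, SE 2 days replicate 1 was the higher mouse for all 4 genes, for example 50.16 against 26.22 CPM for *Stat2*. The median logFC was 1.22 at 6 h and 0.997 at 2 days for the NF-κB genes and 0.20 and 2.91 for these interferon-pathway genes, beside −0.13 and −0.03 over all genes. The interferon genes *Ifnb1* and *Ifng* were not analysed here.

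**Figure D4:**
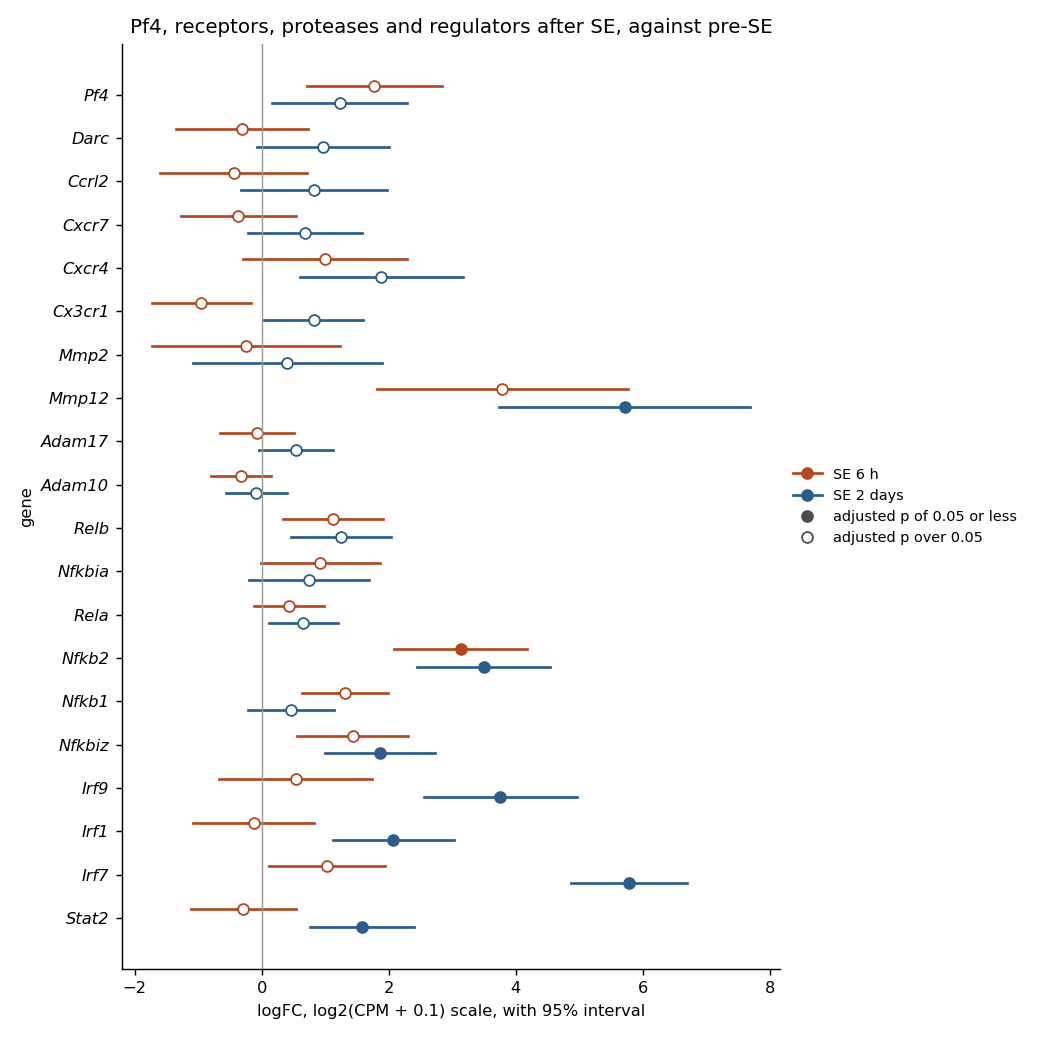
Difference from pre-SE (horizontal axis, logFC on the log2(CPM + 0.1) scale) of *Pf4*, receptors, proteases and regulators (vertical axis) in SE 6 h and SE 2 days mice, 2 mice per group, with limma 95% intervals as lines. Filled points passed an adjusted p of 0.05: *Nfkb2* alone at 6 h, and 7 genes at 2 days, of which *Irf7* had a logFC of 5.79.

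Genes with the profile most like each member were ranked by Pearson's r over the 10 libraries, among 14214 genes with a mean of at least 1 CPM. *Cxcl10* was closest to *Ifih1* (r = 0.993), which encodes a sensor of double-stranded RNA, then to *Irgm1* and *Irf9* (r = 0.99 for both). *Cxcl16* was closest to *Lcp1* (r = 0.991), an actin-bundling protein of leukocytes, then to *Ms4a6c* and *Fcer1g*. *Cxcl13* was closest to *Gsdmd* (r = 0.984), *Parp9* and *Psme2b-ps*. *Cxcl11*, at 1 tag or fewer in every mouse sampled up to 6 h, was closest to *AC106841.1* (r = 0.902), *Trim26* and *Mx2*. *Cxcl1* was closest to *Trib1* (r = 0.977), *Cdkn1a* and *Kif18a*, and *Cxcl2* to *SNORA9* (r = 0.989), *Gm11974* and *1700095B22Rik*. Of the constitutive ligands, *Cx3cl1* was closest to *Cckbr* (r = 0.96), *Edc4* and *Pja1*, *Cxcl12* to *Me3* (r = 0.925), *H1fx* and *Slc4a3*, and *Cxcl14* to *Gpr37* (r = 0.863), *Tbc1d9* and *Vip*. With Spearman's rho in place of r, 3 of these 27 genes remained among the closest, *Ifih1* and *Irgm1* for *Cxcl10* and *Pja1* for *Cx3cl1*. These 10 libraries share groups, and r is given as a description.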

How the data were processed

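CAGE libraries were made from total RNA of the whole hippocampus of 10 mice, and the deposited table gives CPM per gene and library. Per the labels and the methods of the study, the authors mapped tags to mm9 with BWA 0.7.17 and HISAT2 2.0.5, clustered them, discarded clusters under 0.1 CPM, over 200 bp or with an irreproducible discovery rate of 0.1 or more, and used bedtools 2.12.0 and edgeR 3.22.5. The step from clusters to gene values is not given in the sources used here. The CPM values, deposited with 2 decimals, were whole multiples of 1 tag in 100% of cases, which gave the tag totals. The tolerance of 0.005 CPM on either side covers 10.5% to 51.7% of the step between whole tags, and a stricter check for whole reads was not passed in every library, so tag numbers, limits of 3 tags and counting intervals rest on estimated totals. Positions are from GENCODE vM1, which matched all 15900 identifiers.

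limma 3.58.1 (R 4.3.3) was fitted to log2(CPM + 0.1) with 5 group means over all 10 libraries and a mean-variance trend, after testing on simulated data. Adjusted p-values are Benjamini-Hochberg values over 15851 genes and are two-sided. Alternatives are given in the closing section. Counting intervals used scipy 1.17.1. A ligand was early with a logFC at 6 h of at least 1 and not below that at 2 days, late with a logFC at 2 days of at least 1 and above that at 6 h, and constitutive with a pre-SE mean of at least 1 CPM and both logFC within 1. All 9 members and 3 most similar genes per member were named, and genes of the pathway where a statement turns on them. The members and lists were chosen with earlier results of these data known. With 2 mice per group, the p-values rest on a spread pooled over all groups. From each of the microglial and interferon lists 1 gene is not reported here and enters no sum, count or median of its list.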

Additional observations from a re-analysis of the deposited data

How the results depend on the processing

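Counts of members called that were above 0 fell by over 1.5 times in 14 recomputed values, and the counts of 0 stayed at 0. Leaving out each mouse in turn, where a lone mouse is assumed to vary like the other groups, gave 1 to 2 members higher at 6 h (main count 2), 0 to 3 higher and 0 to 1 lower from 6 h to 2 days (main 3 and 1), and 1 to 3 higher in SE + LEV 2 days mice against pre-SE (main 3). From 6 h to 2 days, 0 were higher without SE 6 h replicate 2 or SE 2 days replicate 1, and 0 were lower without any 1 of the 4 mice compared. A pseudocount of 0.01 left 0 lower from 6 h to 2 days, a pseudocount of 1 left 1 higher in SE + LEV 2 days against pre-SE, and fitting only the groups compared left 0 there; the cause was not tested. Among the differences printed, these changed sign, each only without 1 mouse: *Cxcl12* (−0.55 to 0.025) and *Cx3cl1* (−0.24 to 0.12) at 2 days against pre-SE, *Cxcl1* from 6 h to 2 days (−1.01 to 0.74), and with LEV *Cxcl10* at 6 h (−0.11 to 1.01), *Cxcl13* at 2 days (−1.34 to 0.80) and *Cxcl16* at 2 days (−1.37 to 0.011).

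Mice with the same number are different animals, and the study names no pairing. Correlations of their deviations from the group means ran from −0.436 to 0.344. Whether same-numbered mice share anything besides the number was not tested. With the replicate block, the members called were 2 higher at 6 h, 4 higher at 2 days, 3 higher and 1 lower from 6 h to 2 days, and 3 higher in SE + LEV 2 days mice, as without it; *Stat2* did not pass at 2 days (limma adjusted p = 0.0518), and genes higher in SE + LEV 6 h mice against pre-SE went from 50 to 35. Over all alternatives the genes called ranged, higher and lower, from 106 to 532 and 2 to 39 at 6 h (main 437 and 32), 246 to 994 and 3 to 190 at 2 days (803 and 94), 117 to 646 and 36 to 274 from 6 h to 2 days (498 and 176), 0 to 86 and 0 to 3 in SE + LEV 6 h mice (50 and 1) and 0 to 619 and 0 to 19 in SE + LEV 2 days mice (448 and 3), both against pre-SE. With LEV against SE they ranged from 0 to 2 and 0 to 9 at 6 h (0 and 2) and 0 to 1 and 0 to 2 at 2 days (0 and 0), and in the interaction 0 to 2 and 0 to 0 (0 and 0). Rescaling moved 4 of 45 group means by over 1 SD. The planned count tests on recovered tags were not run, since the tags rest on CPM values rounded to 2 decimals and were used for totals and low levels alone. Depth limits *Cxcl11* and *Cxcl13* up to 6 h (1 tag or fewer per mouse), *Cxcl1* and *Cxcl2* before SE (3 tags or fewer), and *Cxcl2* in SE + LEV replicate 2 (3 tags at 6 h and 1 tag at 2 days).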
